A study of Homo sapiens with 8 samples.

Results

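The pro-apoptotic BCL2 family was examined here in MCF10A, an immortalized but non-tumorigenic line of human breast epithelium, after DNA damage in the presence or absence of p53. The 10 genes were BBC3, PMAIP1, BAX, BAK1, BID, BIK, BAD, BMF, BCL2L11 and HRK, out of 20296 genes named on the array, and each was found by the RefSeq transcript or symbol that the array gives for its probes. All 10 were present, with 15 probes between them, and 6 of the genes had 1 probe. Where a gene had several, the probe with the highest mean level over the 8 arrays was used, and the other probes are described beside it. The cells were MCF10A p53+/+ and MCF10A p53−/−. They were harvested untreated (0 h) or at 12, 24 and 48 h after 2 h with adriamycin (ADR, doxorubicin), for which the labels give 0.5 µg/ml and the study's methods 2 µg/ml. Each of the 8 conditions had 1 RNA sample on 1 single-colour array, so a single time point has no replicate. The sources used here do not say how the p53−/− line was made or whether it is 1 clone.

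BCL2 family proteins control the release of cytochrome c from mitochondria. BAX and BAK1 form pores in the outer mitochondrial membrane once they are activated, anti-apoptotic members such as BCL2, BCL2L1 (BCL-XL) and MCL1 hold them in check, and the BH3-only proteins bind the anti-apoptotic members or activate BAX and BAK1 directly. BBC3 (PUMA), PMAIP1 (NOXA) and BAX are textbook transcriptional targets of p53 after DNA damage, whereas BH3-only proteins such as BID and BAD are known mainly for their regulation as proteins.

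The promoter sequences of 4 genes are shown. The first 3 were the members that passed the test described below as higher in treated p53+/+ than in treated p53−/− cells. PMAIP1 is the classical p53 target that did not pass. Each line gives the 250 bases before the transcription start, 5′ to 3′ on the strand of the gene, from RefSeq (GRCh38.p14), and capitals mark a match to the p53 response element consensus. The positions were chr19:47232668-47232917 (minus strand) for BBC3, chr19:48954625-48954874 (plus strand) for BAX, chr6:33580277-33580526 (minus strand) for BAK1 and chr18:59899746-59899995 (plus strand) for PMAIP1.
BBC3: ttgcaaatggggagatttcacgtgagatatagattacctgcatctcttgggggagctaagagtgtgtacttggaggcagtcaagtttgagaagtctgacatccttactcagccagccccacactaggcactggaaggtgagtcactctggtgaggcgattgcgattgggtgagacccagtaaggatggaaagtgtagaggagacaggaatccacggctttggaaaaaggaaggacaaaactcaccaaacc
BAX: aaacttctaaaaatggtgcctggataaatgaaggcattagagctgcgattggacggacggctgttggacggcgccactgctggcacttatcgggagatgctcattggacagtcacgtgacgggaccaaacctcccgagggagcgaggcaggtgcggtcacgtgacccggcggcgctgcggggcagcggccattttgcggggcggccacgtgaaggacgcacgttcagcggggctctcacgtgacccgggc
BAK1: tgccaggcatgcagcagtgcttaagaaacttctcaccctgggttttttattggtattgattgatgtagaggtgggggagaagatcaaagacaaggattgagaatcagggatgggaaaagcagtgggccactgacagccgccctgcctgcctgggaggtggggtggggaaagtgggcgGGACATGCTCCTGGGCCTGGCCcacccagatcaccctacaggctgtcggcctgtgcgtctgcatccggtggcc
PMAIP1: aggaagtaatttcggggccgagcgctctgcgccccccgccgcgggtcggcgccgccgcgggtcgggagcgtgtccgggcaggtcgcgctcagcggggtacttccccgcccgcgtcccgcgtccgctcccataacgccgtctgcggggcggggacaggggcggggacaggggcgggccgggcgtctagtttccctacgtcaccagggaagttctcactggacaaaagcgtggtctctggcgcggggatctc

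The match was 2 copies of the 10-base p53 half-site consensus, at most 13 bases apart, with at most 2 mismatches over both copies and the central C and G of each copy kept, searched on both strands in windows from 250 bases before to 50 after each start. Of the 9 members with a window (all but BIK), BAK1 alone held a match, from 73 to 52 bases before its start with 2 mismatches. It reads GGACATGCTCCTGGGCCTGGCC, with 2 bases between the copies. BBC3, BAX and PMAIP1 held none in these windows, and neither did BID (5 windows), BAD (2 windows), BMF (2 windows), BCL2L11 and HRK. Of all 27305 genes with a window, 3.62% held a match in at least 1, and of all 35116 windows 2.93% did. A match is a likeness of letters and not a binding site, and its absence says only that these letters are not in these windows.

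One array raises a doubt that bears on some of the results. On the array labelled p53+/+ 0 h, 12 of 12 p53 targets outside the family, 9 of the 10 members and 8 of 10 basal epithelial markers lay nearer to the p53−/− 0 h array than to the mean of the 3 treated p53+/+ arrays. Of the 12 targets, 10 nevertheless read higher there than at p53−/− 0 h, by 0.05 to 1.83 on the log2 scale, and MDM2 and FDXR did not (differences of −0.33 and −0.02). The widest gap was that of CDKN1A, the cell-cycle inhibitor p21, whose log2 level relative to the array's 75th percentile was −1.14 there, −2.97 at p53−/− 0 h and 2.54 to 2.70 in treated p53+/+ cells. AEN, TIGAR and TNFRSF10B followed, with gaps between the 0 h arrays of 1.25, 1.24 and 1.02. An untreated array of either genotype can lie nearer to another untreated array on genes that ADR changes. These counts therefore cannot decide the label. With 1 array of each genotype at 0 h, the levels do not settle it either. The label of that array is treated as in doubt throughout. Comparisons between the treated arrays do not use that array. Changes from 0 h in p53+/+ cells do, and are given below both from it and from the p53−/− 0 h array.

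Levels are log2 processed signals relative to each array's 75th percentile, so that 1 unit is a 2-fold difference, and no level is compared between genes. Per array, 49.8 to 62.9% of probes were well above background, and the p53+/+ 48 h array had 0 of 10 spike-in probes well above background against 6 on every other array. All arrays lay on 1 slide with each genotype in its own column, so the position on the slide cannot be told apart from genotype. The basal epithelial markers moved with genotype. Of 10, 8 were higher in treated p53+/+ cells by the test described below, among them the adhesion gene CDH1 (1.42 to 2.10 against −3.30 to −0.94). The log2 of their summed level was 8.96 to 9.17 in treated p53+/+ cells, 7.81 to 7.97 in treated p53−/− cells, 7.89 at p53−/− 0 h and 8.21 on the array labelled p53+/+ 0 h. TP63 was well above background on 3 arrays. Of the luminal hormone receptors, ESR1 was well above background on 7 of 8 arrays and did not pass the test, and PGR was on none. Of the fibroblast markers, COL1A1 and PDGFRB passed the test as lower in treated p53+/+ cells. COL1A2 was not above background on any array. Of the endothelial markers PECAM1 passed as lower and CDH5 did not pass, and none of the 3 leukocyte markers passed. COL1A1, PDGFRB and PECAM1 lay at the background in p53+/+ cells after ADR, which limits these differences to bounds, set as for BMF below. COL1A1 was at least 2.85-fold and PECAM1 at least 6.58-fold lower. PDGFRB was well above background on 3 of 8 arrays, and its bound establishes no difference. The part of these marker shifts in the results below was not tested. In bulk RNA a change in the share of cells and a change in RNA per cell cannot be told apart.

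BBC3, BAX and BAK1 were higher and BMF and BID lower in treated p53+/+ than in treated p53−/− cells, so 3 of 10 members passed the test in one direction and 2 in the other. The test was limma over the 6 treated arrays with Benjamini-Hochberg adjustment over 28947 probes at a threshold of 0.05. The 3 time points of a genotype stood in for replicates, so its p-values set a difference against the movement over time and not against the spread between cultures. In this comparison 10.6% of all tested probes were higher and 7.40% lower. Of all probes called, 58.8% were higher. This share was 48.3% with quantile normalization, 45.7% with median scaling, 14.5% without scaling and 73.3% with normexp background correction, and the median difference of all tested probes, 0.09 on the log2 scale, was −0.51 without scaling and 0.28 with normexp. The median difference of the 10 members was 0.45. Levels did not overlap between the treated genotypes for 8 members, 4 of them higher and 4 lower in p53+/+ cells, against 25.1% and 16.4% of all tested probes. At least 2-fold at each of the 3 treated times, without a test, BBC3, BAX, BAK1 and HRK were higher (5.71% of tested probes) and BMF was lower (4.58%).

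**Figure D1:**
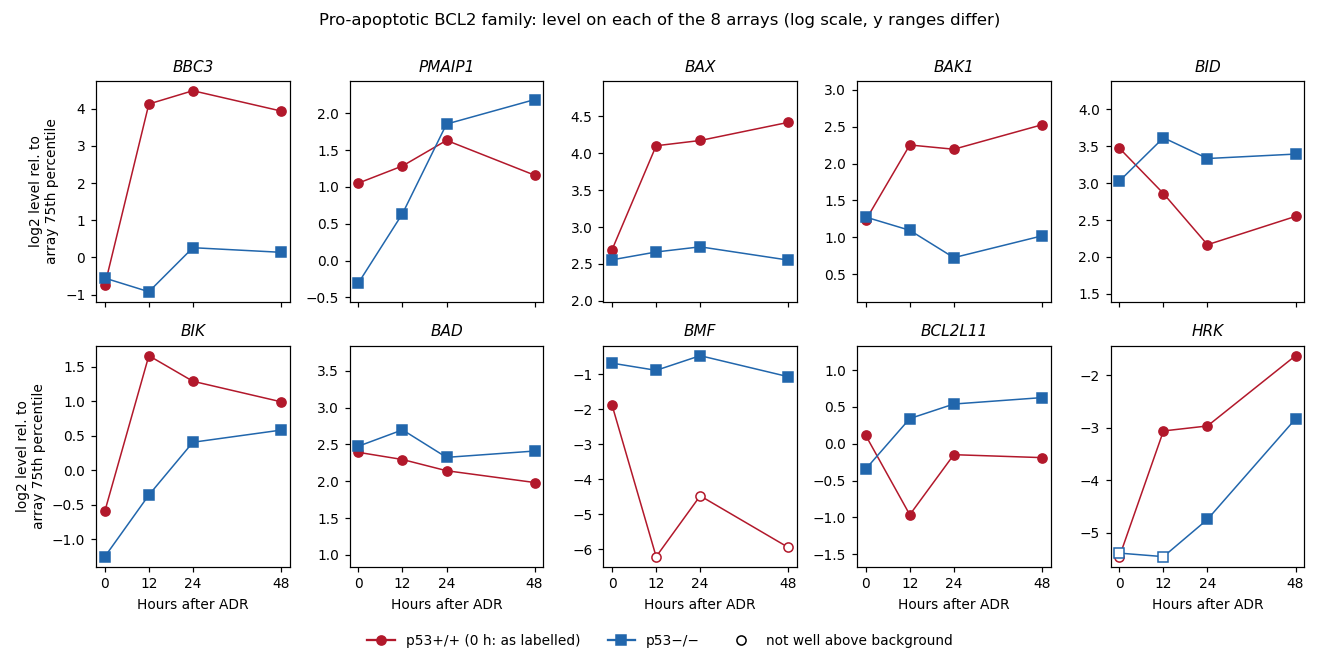
Log2 level of each member relative to the array's 75th percentile (y axis, ranges differ) against hours after ADR (x axis). Each point is 1 array, circles are p53+/+ with the 0 h array as labelled, squares are p53−/−, and hollow points were not well above background. BBC3 lies between 3.94 and 4.48 on the treated p53+/+ arrays and between −0.92 and 0.26 on the treated p53−/− arrays, and all 3 treated p53+/+ points of BMF are hollow.

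**Figure D2:**
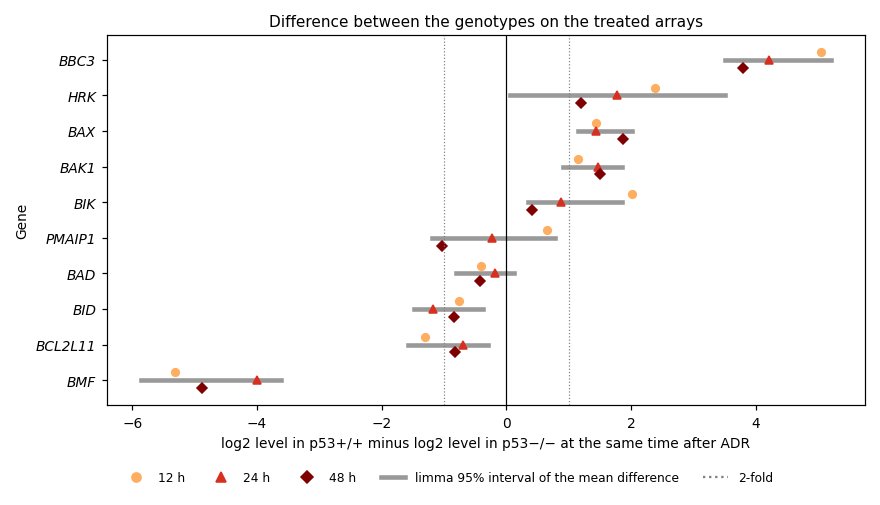
Difference of the log2 levels of p53+/+ and p53−/− cells at the same time after ADR (x axis) for each member, ordered by the mean. Points are the 3 time points, grey bars the 95% interval of the mean difference from limma (not adjusted for the number of probes), and dotted lines mark 2-fold. All 3 points lie past the upper 2-fold line for BBC3, HRK, BAX and BAK1, and past the lower one for BMF.

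BBC3, which encodes the BH3-only protein PUMA, able to bind all anti-apoptotic members, had the largest rise of the members that were well above background at 0 h. It read 4.12, 4.48 and 3.94 at 12, 24 and 48 h in treated p53+/+ cells, and −0.92, 0.26 and 0.14 in treated p53−/− cells. At 0 h it read −0.75 on the array labelled p53+/+ and −0.56 on the p53−/− array. The 3 treated p53+/+ arrays thus stood apart from the other 5, which lay between −0.92 and 0.26. At equal times p53+/+ exceeded p53−/− by 33.1-fold at 12 h, 18.7-fold at 24 h and 13.9-fold at 48 h. The mean difference was 4.36 on the log2 scale (95% interval 3.51 to 5.20, adjusted p = 0.00101 from limma), higher at 3 of 3 time points. It passed the test under all 12 alternatives, with differences of 3.76 to 4.63. From the array labelled p53+/+ 0 h the rises were 29.3-, 37.5- and 25.7-fold, a mean of 4.93 (adjusted p = 0.00418), and from the p53−/− 0 h array the mean was 4.74 (adjusted p = 0.00553). The first of these lost the call without the 24 h arrays (4.78, adjusted p = 0.0627). In p53−/− cells the changes were −0.37, 0.82 and 0.69 at 12, 24 and 48 h. Their mean was 0.38 (interval −0.82 to 1.58, adjusted p = 0.828 from limma).

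Of the 10 members, BBC3 alone passed the test of whether the change after ADR differed between the genotypes. This interaction, which uses both 0 h arrays, was 4.55 (interval 2.85 to 6.24, adjusted p = 0.0377 from limma), where 0.940% of tested probes were called positive. The call was lost without the p53+/+ 48 h array (adjusted p = 0.0569), without the 12, 24 or 48 h arrays (adjusted p = 0.0710, 0.253 and 0.0869), with time point as a block (0.0689), without scaling (0.0534) and without the filter (0.0513), while the estimate stayed between 3.74 and 4.83. No member had a negative interaction by the adjusted test (0.746% of tested probes). On simulated data the interaction test recovered 1% of changes of 2 on the log2 scale and 39% of changes of 4. A member that did not pass may therefore still differ. An unadjusted p below 0.05 from limma was reached by 4949 of the 28947 tested probes in either direction. Among members there were 3 such negative ones, BID, BMF and BCL2L11. Besides BBC3 there were 2 such positive ones, BAX (1.45, adjusted p = 0.111) and BAK1 (1.42, adjusted p = 0.139). With p53−/− 0 h used as the starting level in both genotypes the interaction becomes the treated difference by construction, and the same 5 members were called.

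PMAIP1 encodes NOXA, a BH3-only protein that binds MCL1. It read 1.28, 1.63 and 1.16 in treated p53+/+ cells and 0.64, 1.85 and 2.19 in treated p53−/− cells. At 0 h the levels were 1.05 on the array labelled p53+/+ and −0.30 on the p53−/− array, the widest gap between the 0 h arrays among members (1.35). The treated groups overlapped, with p53+/+ higher at 12 h and p53−/− higher at 24 and 48 h. The mean difference was −0.20 (interval −1.19 to 0.79, adjusted p = 0.780 from limma). In p53−/− cells PMAIP1 read 1.92-, 4.45- and 5.61-fold above 0 h at 12, 24 and 48 h, a mean of 1.86 that did not pass the test (interval 0.46 to 3.26, adjusted p = 0.380). In p53+/+ cells the mean change was 0.31 from the array labelled p53+/+ 0 h and 1.66 from the p53−/− 0 h array (adjusted p = 0.796 and 0.154), so its size rests on which 0 h array is taken.

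BAX and BAK1, the pore-forming members, were both higher in treated p53+/+ cells. BAX, on a probe printed in 10 spots, read 4.10, 4.17 and 4.42 in treated p53+/+ cells and 2.66, 2.73 and 2.55 in treated p53−/− cells, with 2.69 on the array labelled p53+/+ 0 h and 2.56 at p53−/− 0 h. The 5 arrays other than treated p53+/+ lay between 2.55 and 2.73, and the groups did not overlap. The difference was 2.72-fold at 12 and 24 h and 3.65-fold at 48 h, with a mean of 1.58 (interval 1.15 to 2.02, adjusted p = 0.00310 from limma). Without the 24 h arrays it was 1.66 and no longer passed (adjusted p = 0.0902). The second BAX probe, for NM_004324, gave 1.03 (adjusted p = 0.0119). From the array labelled p53+/+ 0 h BAX rose 2.66-, 2.79- and 3.31-fold, a mean of 1.54 (adjusted p = 0.0197), and from the p53−/− 0 h array by a mean of 1.68 (adjusted p = 0.0142). The first of these lost the call without the 12, 24 or 48 h arrays (adjusted p = 0.0552, 0.164 and 0.0511). In p53−/− cells the change was at most 1.13-fold at any time.

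BAK1 read 2.25, 2.19 and 2.53 in treated p53+/+ cells and 1.09, 0.72 and 1.02 in treated p53−/− cells. The 0 h arrays were level with each other, at 1.23 (labelled p53+/+) and 1.27 (p53−/−). The treated groups lay on either side of these 0 h levels. The difference was 2.23-, 2.77- and 2.84-fold at 12, 24 and 48 h, with a mean of 1.38 (interval 0.90 to 1.85, adjusted p = 0.00682 from limma), and without the 24 h arrays 1.33 (adjusted p = 0.120). The change in p53+/+ cells, 1.09 from the array labelled p53+/+ 0 h and 1.05 from the p53−/− 0 h array, did not pass (adjusted p = 0.0718 and 0.0769), and neither did the change of −0.33 in p53−/− cells (adjusted p = 0.731).

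BID, which caspase-8 cleaves to link death receptors to mitochondria, was lower in treated p53+/+ cells. It read 2.86, 2.16 and 2.55 there and 3.62, 3.33 and 3.39 in treated p53−/− cells, without overlap, and 3.47 and 3.03 on the 0 h arrays labelled p53+/+ and p53−/−. The difference was 1.69-, 2.25- and 1.80-fold, with a mean of −0.92 (interval −1.48 to −0.37, adjusted p = 0.0391 from limma). The call was lost without the p53+/+ 48 h array (−0.94, adjusted p = 0.0748) and without the 12, 24 or 48 h arrays (−1.01, −0.80 and −0.96, adjusted p = 0.0848, 0.242 and 0.136). The second BID probe, for the same transcript, gave −0.85 (adjusted p = 0.0627). The mean change in p53+/+ cells was −0.95 from the array labelled p53+/+ 0 h and −0.50 from the p53−/− 0 h array (adjusted p = 0.150 and 0.429).

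BCL2L11 encodes BIM, a BH3-only protein that activates BAX and BAK1. It read −0.96, −0.15 and −0.19 in treated p53+/+ cells and 0.34, 0.54 and 0.63 in treated p53−/− cells, with 0.11 and −0.34 on the 0 h arrays labelled p53+/+ and p53−/−. The groups did not overlap, and the p53+/+ 12 h array was the lowest of the 8. The mean difference of −0.94 did not pass the test (interval −1.58 to −0.29, adjusted p = 0.0569 from limma). It passed under 6 of 12 alternatives, including quantile normalization (−1.03, adjusted p = 0.0449) and the filter on all 8 arrays (adjusted p = 0.0257). Its 2 other probes gave −0.63 and −0.54 (adjusted p = 0.192 and 0.152).

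BMF, a BH3-only protein tied to the cytoskeleton, had the largest fall. In p53−/− cells it stayed between −1.07 and −0.47 at all 4 times, and it read −1.89 on the array labelled p53+/+ 0 h. In treated p53+/+ cells it read −6.21, −4.47 and −5.94, and none of these 3 arrays was well above background, so only a bound on the difference can be given. BMF was at least 14.0-fold lower in treated p53+/+ than in treated p53−/− cells by the following rule. The bound sets each dim array to the higher of its own level and the lowest level well above background on that array. That lowest level is taken over all probes and is no detection limit of BMF itself. At 24 h BMF lay above it (−4.47 against −4.50) without being well above background. The same limit holds for every bound given here. The measured mean difference was −4.73 (adjusted p = 0.00204 from limma), and it passed under all 11 alternatives, between −5.33 and −2.32. The second BMF probe was well above background on the 3 treated p53−/− arrays alone, where it read −4.96, −3.95 and −4.34, and no difference is drawn from it. Against the array labelled p53+/+ 0 h BMF was at least 6.66-fold lower, and against p53−/− 0 h at least 15.3-fold lower. The limma tests used the measured changes instead, −3.65 (adjusted p = 0.0255) and −4.86 (adjusted p = 0.0102). The first of these lost the call without the p53+/+ 48 h array (adjusted p = 0.0539) and without the 12 or 48 h arrays (adjusted p = 0.0651 and 0.0811).

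BIK, a BH3-only protein of the endoplasmic reticulum, read higher after ADR than at 0 h in both genotypes. Its levels were 1.66, 1.29 and 0.99 in treated p53+/+ cells and −0.36, 0.41 and 0.58 in treated p53−/− cells, against −0.59 and −1.25 on the 0 h arrays labelled p53+/+ and p53−/−. The genotypes were 4.06-fold apart at 12 h and 1.33-fold apart at 48 h. The mean difference of 1.11 did not pass (interval 0.36 to 1.85, adjusted p = 0.0550 from limma), although it passed with normexp (adjusted p = 0.0215), with the filter on all 8 arrays (0.0239) and without a filter (0.0391). The mean change was 1.91 in p53+/+ cells from the array labelled p53+/+ 0 h (adjusted p = 0.0538), 2.57 from the p53−/− 0 h array (adjusted p = 0.0212) and 1.46 in p53−/− cells (interval 0.40 to 2.52, adjusted p = 0.366).

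HRK, a BH3-only protein known mostly from neurons, was not well above background at 0 h on either array or at 12 h in p53−/− cells. It read −3.06, −2.97 and −1.63 in treated p53+/+ cells and −5.45, −4.74 and −2.83 in treated p53−/− cells. The groups overlapped, since p53−/− at 48 h read above p53+/+ at 12 and 24 h. The mean difference of 1.79 did not pass (interval 0.06 to 3.52, adjusted p = 0.136 from limma). It passed with time point as a block (adjusted p = 0.0251), with normexp (1.07, adjusted p = 0.0495) and without the 48 h arrays (2.08, adjusted p = 0.0307). In p53+/+ cells HRK was at least 4.28-, 4.57- and 11.5-fold above the array labelled p53+/+ 0 h at 12, 24 and 48 h, and in p53−/− cells at least 1.42- and 5.32-fold above p53−/− 0 h at 24 and 48 h.

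BAD, a BH3-only protein held inactive by phosphorylation, moved least. Its 8 levels spanned 0.71 on the log2 scale, with 2.29, 2.14 and 1.98 in treated p53+/+ cells and 2.70, 2.32 and 2.41 in treated p53−/− cells. The p53+/+ levels were the lower at each time, and the mean difference of −0.34 did not pass (interval −0.80 to 0.13, adjusted p = 0.273 from limma). Without scaling it was −0.94 and passed (adjusted p = 0.0250), in a setting where the median of all tested probes was −0.51.

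**Figure D3:**
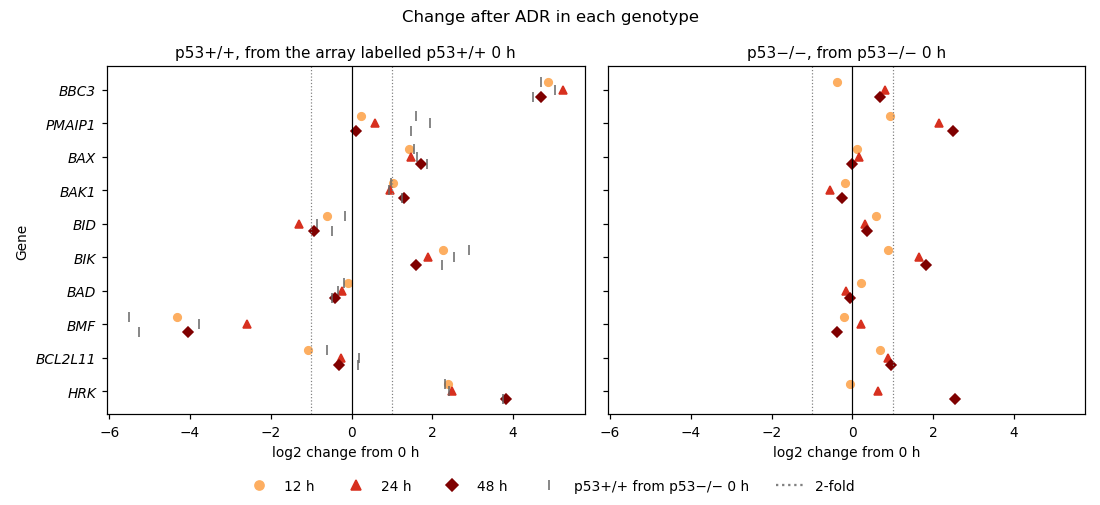
Log2 change from 0 h (x axis) of each member after 12, 24 and 48 h, for p53+/+ cells from the array labelled p53+/+ 0 h (left) and for p53−/− cells (right). Each point is 1 treated array against 1 untreated array, grey ticks show the p53+/+ changes from the p53−/− 0 h array, and dotted lines mark 2-fold. BBC3 rose 29.3-, 37.5- and 25.7-fold in p53+/+ cells and at most 1.76-fold in p53−/− cells, where PMAIP1, BIK and HRK show the highest changes.

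Taking all members from their own 0 h array, 3 of 10 changed in p53+/+ cells, BBC3 and BAX upwards and BMF downwards (limma, 6.99% of tested probes changed). With the p53−/− 0 h array as baseline they were 4, with BIK added, where 1347 of the 28947 tested probes were higher and 767 lower. In p53−/− cells none of the 10 changed by the same test (0.0553% of tested probes). PMAIP1 and BIK had an unadjusted p below 0.05 from limma, as did 2865 of the 28947 tested probes. By size, 4 members rose at least 2-fold at all 3 times in p53+/+ cells, BBC3, BAX, BIK and HRK (7.94% of tested probes), and BMF fell (5.78%). From the p53−/− 0 h array PMAIP1 rose as well, by 1.59, 1.93 and 1.46 on the log2 scale at 12, 24 and 48 h. The share of all probes for that baseline was not computed, so no count is read from it. No member rose (2.64%) or fell (1.84%) so at all 3 times in p53−/− cells. PMAIP1 and BIK did at 24 and 48 h but not at 12 h, where they were 1.92- and 1.86-fold above 0 h. BAK1, BID and BCL2L11 had changes of opposite sign in the genotypes at all 3 times. From the p53−/− 0 h array this held for BAK1 and BID but not for BCL2L11, whose p53+/+ changes were then −0.62, 0.19 and 0.15. The share of all tested probes with such opposite changes was not computed, so this is a description of these genes only.

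**Figure D4:**
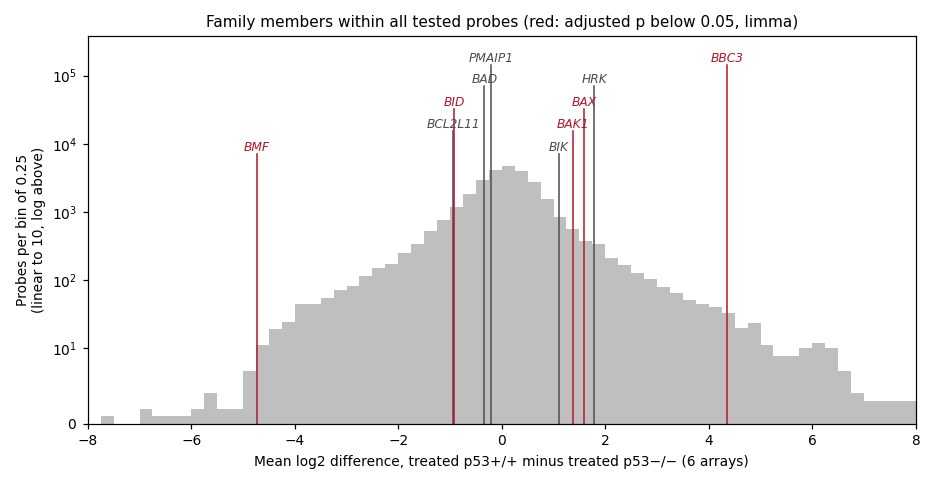
Number of tested probes (y axis, linear up to 10 and logarithmic above) by mean log2 difference between treated p53+/+ and treated p53−/− cells (x axis, bins of 0.25; the axis runs from −8 to 8). Vertical lines mark the 10 members, in red where the adjusted p from limma was below 0.05. BBC3 lies at percentile 99.4 of the 28947 probes, BMF is drawn at its measured difference although it was not well above background in treated p53+/+ cells, and BAD and PMAIP1 lie near the centre.

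Genes that followed the members over the 8 arrays were found by the root mean square (RMS) difference between centred log2 levels, among 11820 other genes well above background on every array. FDXR, a p53 target that encodes ferredoxin reductase, was the nearest to BBC3, with an RMS difference of 0.26, and read 6.22, 7.04 and 6.91 in treated p53+/+ cells against 1.56 to 2.42 on the other 5 arrays. The next was HES2 (0.27). For BAX they were SLC9A7 and NTPCR (0.10 and 0.12), for BAK1 GMIP and SARS1 (0.07 and 0.10), for BID NUDC and NIPA2 (0.07 and 0.07), for PMAIP1 FST and CHCHD7 (0.25 and 0.26), for BIK MIR3936HG and DEPDC7 (0.17 and 0.25), and for BCL2L11 CEP41 and RBM17 (0.13 and 0.14). These are descriptions over 8 arrays of 1 slide, with no test.

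Of 20 other genes of the mitochondrial route to apoptosis, 19 were tested, 2 were higher and 1 lower in treated p53+/+ cells, and 16 did not pass. These counts were near the shares of all tested probes, 10.6% higher and 7.40% lower. All 3 genes that passed are anti-apoptotic. The median difference of the 19 was 0.18, against 0.09 over all tested probes. BCL2L1 (BCL-XL) read 0.50, 0.98 and 0.68 in treated p53+/+ cells and −1.12, −0.89 and −0.74 in treated p53−/− cells, a mean difference of 1.64 (interval 1.13 to 2.14, adjusted p = 0.00469 from limma). BCL2L2 (BCL-W) read 1.66, 1.62 and 2.02 against 0.26, 0.45 and 0.39, a difference of 1.40 (interval 0.94 to 1.86, adjusted p = 0.00591). Both were thus higher in the same 3 arrays as BBC3, BAX and BAK1. BCL2 read −2.93, −2.88 and −3.41 in treated p53−/− cells and did not stand well above background in treated p53+/+ cells at any time, where it was at least 2.95-fold lower (measured difference −3.57, adjusted p = 0.000457). MCL1, the partner of NOXA, was higher by 0.48 and APAF1, which assembles the apoptosome, by 0.96, and neither passed (adjusted p = 0.0881 and 0.0865). The initiator caspase CASP9, cytochrome c (CYCS) and the caspase inhibitor XIAP did not pass either.

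For scale, 12 of 12 p53 targets outside the family were higher in treated p53+/+ cells, with a median difference of 3.30. The smallest was 1.90 for AEN and the largest 7.31 for GDF15, a secreted stress cytokine. BBC3, at 4.36, lay inside this range, and BAX and BAK1, at 1.58 and 1.38, below it. The list was drawn up with earlier results of these data known and is no independent evidence.

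**Figure D5:**
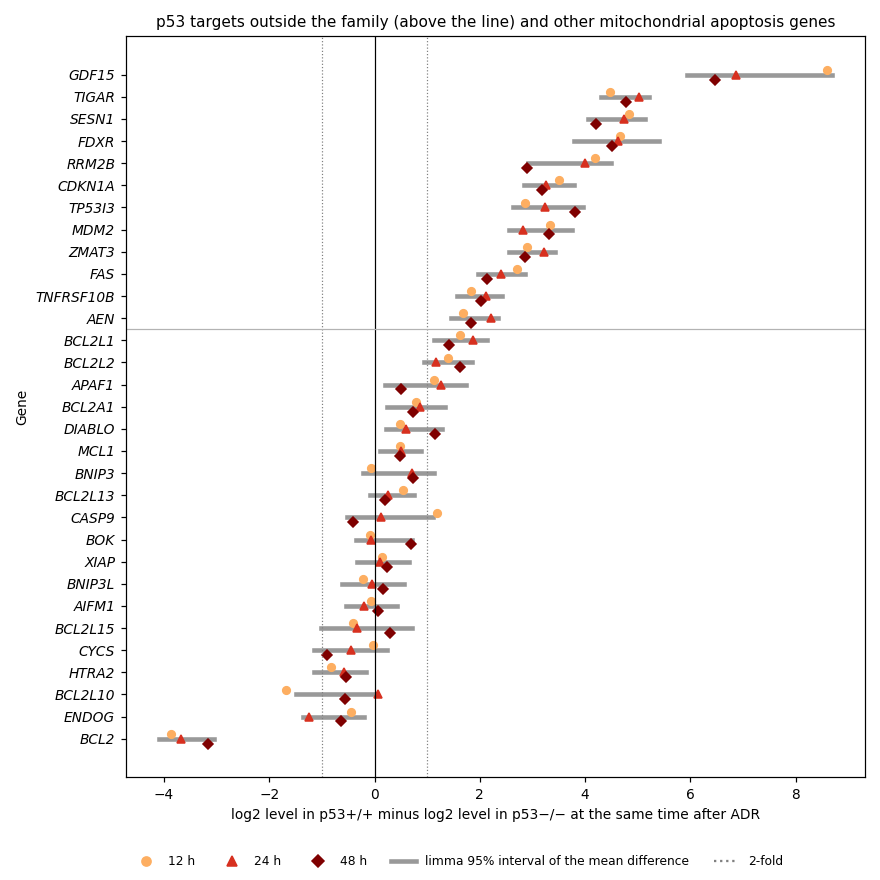
Difference of the log2 levels of p53+/+ and p53−/− cells at the same time after ADR (x axis) for 12 p53 targets outside the family (above the line) and 19 other mitochondrial apoptosis genes (below it). Points are the 3 time points, grey bars the 95% interval of the mean difference from limma (not adjusted for the number of probes), and dotted lines mark 2-fold. All 12 p53 targets lie to the right of 2-fold, BCL2L1 and BCL2L2 are the highest of the lower list and BCL2 is the lowest.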

How the data were processed

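RNA of 8 MCF10A samples was measured on Agilent SurePrint G3 Human GE single-colour arrays. The authors deposited Agilent Feature Extraction 10.7.3.1 output, in which the intensity of each spot is already background-corrected, with flags for uneven spots and for signal well above background. The deposited series table repeats these values. Flagged spots (233 to 370 per array) were left out, spots of a probe were averaged as log2 intensity, and each array's 75th percentile was subtracted. The 28947 probes that stood well above background on 1 array or more were tested with limma 3.58.1 (R 4.3.3; lmFit and eBayes, Benjamini-Hochberg, threshold 0.05), tested on simulated data first. The treated comparison used 6 arrays, and the interaction and the changes from 0 h used all 8, with time points standing in for replicates. All members and the genes of the lists that passed the test are named. Members, lists and tests were chosen with earlier results of these data known. Some genes of the planned lists are not reported here. A search for BH3 motifs was planned and not run. The number of arrays limits the precision. Python 3.11.15, pandas 2.3.3 and matplotlib 3.10.9 were used.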

Additional observations from a re-analysis of the deposited data

Results flagged for a closer look

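BBC3 is listed because the test of the difference between the genotypes in the change after ADR passed, at 4.55 on the log2 scale (adjusted p = 0.0377 from limma). BAK1, BID and BCL2L11 are listed because all 3 treated p53+/+ arrays moved one way from 0 h and all 3 treated p53−/− arrays the other. How many of all tested probes did so was not computed. The mean difference of the changes was 1.42 for BAK1, −1.37 for BID and −1.39 for BCL2L11, and the difference did not pass the test for any of these (adjusted p = 0.139, 0.204 and 0.257 from limma). These 4 values use the array labelled p53+/+ 0 h, whose label is in doubt. Without it, treated p53+/+ cells differed from treated p53−/− cells by 4.36, 1.38, −0.92 and −0.94 for BBC3, BAK1, BID and BCL2L11. Groups of 1 array allow no check for single samples that stand apart.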

How the results depend on the processing

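With 1 array per genotype and time point there are no replicate numbers to pair. Between the treated genotypes 3 members were higher and 2 lower, where 3058 and 2143 of the 28947 tested probes were. With normexp 5 members were higher, where 7257 probes were, and without scaling 4 were lower, where 8028 probes were. With 1 time point or the p53+/+ 48 h array left out, 1 to 4 were higher (1 without the 24 h arrays, 4 without the 48 h arrays) and 1 was lower. Of all tested probes, 207 were higher and 85 lower without the 24 h arrays, and 1438 and 1133 without the 48 h arrays. The positive interactions, 1 in the reported setting, were 0 without scaling, without the filter, with time point as a block and in each setting with arrays left out, 2 with normexp, and 3 with the p53−/− 0 h array as the 0 h of both genotypes, where 2 negative ones appeared as well. With normexp 831 probes had a positive interaction against 272 as reported, and 3058 did with p53−/− 0 h for both. Members changed in p53+/+ cells, 3 as reported, were 5 with normexp (1891 probes higher and 995 lower) and 1 to 2 with arrays left out. Members raised in p53−/− cells by size, 0 as reported, were 2 with median scaling, 3 without scaling and 2 when 2 of 3 time points sufficed. Members higher in p53+/+ cells by size, 4 as reported, were 1 without scaling and 1 with a 3-fold rule, and members lower, 1 as reported, were 3 without scaling. Shares of all probes under these altered size rules are not given here. Signs that turned belonged to values past no threshold. The treated difference of PMAIP1 lay between −0.62 and 0.21 with arrays left out (0.21 without the 48 h arrays), and its change in p53+/+ cells was −0.11 without scaling. The change in p53−/− cells became 0.061 for BAK1 without scaling. For BAD it was −0.026 with quantile normalization and −0.11 to 0.078 with arrays left out, and for BMF 0.26 without scaling, 0.14 with the mean of all probes and −0.30 to 0.0049 with arrays left out. The interaction of BIK was −0.36 without scaling and −0.010 to 0.79 with arrays left out. With fewer arrays fewer degrees of freedom were left, and the cause of the other moves was not tested. BMF in treated p53+/+ cells and HRK at 0 h lay at the background, which limits their fold changes to bounds.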
